A study of Mus musculus with 24 samples.

Results

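The genes described here are the nuclear genes for the subunits of oxidative phosphorylation, together with the gene for cytochrome c, measured in whole mouse liver. They were chosen by name, as every gene of the array whose symbol marks it as a subunit of complexes I to V (Nduf, Sdh, Uqcr and Cyc1, Cox and Atp5 symbols) or as Cycs, and that has a probe in the authors' normalized table. The rule found 82 such genes, read by 124 probes, among the 21652 genes with a probe in that table. Each gene was represented by its brightest probe over the 24 arrays. Of the 82, 35 belong to complex I, 4 to complex II, 9 to complex III, 16 to complex IV and 15 to complex V, 1 is Cycs, and 2 (Atp5s and Atp5sl) carry an Atp5 symbol without being subunits of the ATP synthase. Ndufa4 was counted with complex IV, and Cox7a2l, a factor of respiratory supercomplexes, was kept there by its name. The array holds 84 genes with such names. The other two, Cox7b2 and Cox8c, have no probe in the normalized table and were left out, with a signal well above background on 6 and 0 of the 24 arrays. All 82 genes passed the filter on dim probes, among 21372 genes tested.

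The study profiled livers of mice with a hepatocyte-selective loss of p110α, the catalytic subunit of phosphoinositide 3-kinase encoded by Pik3ca, in fed and fasted animals. Mice labelled LKO carry floxed Pik3ca and a Cre recombinase driven by the albumin promoter, which acts in hepatocytes, so other liver cells keep the gene. Mice labelled LWT are floxed littermates without Cre, so the presence of Cre itself was not controlled for. All were male C57BL/6J animals of 12 weeks, killed at zeitgeber time 16, after feeding ad libitum (LWT_Fed and LKO_Fed) or after 24 h without food (LWT_Fasted and LKO_Fasted), with 6 mice in each of the 4 groups and 1 array per mouse.

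Oxidative phosphorylation couples electron flow to ATP synthesis in the inner mitochondrial membrane. Complexes I and II pass electrons from NADH and succinate to coenzyme Q, complex III passes them on to cytochrome c, complex IV reduces oxygen, and complex V uses the resulting proton gradient to make ATP. Most subunits are encoded in the nucleus, a few core ones by mitochondrial DNA, and in fasting liver the chain oxidises the reducing equivalents set free by fatty acid oxidation.

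Across arrays, 54.7% to 63.0% of spots were well above background, the median signal was 69 to 88.5 and no spot was saturated. The 24 arrays lie on 3 slides, each with 2 arrays of every group. The single Pik3ca probe was not lower in LKO livers: its log2 level was 11.91 ± 0.209 (SD, n = 6) in LWT_Fed, 12.28 ± 0.141 in LWT_Fasted, 12.54 ± 0.258 in LKO_Fed and 12.26 ± 0.19 in LKO_Fasted. Only part of the gene is floxed and the place of this probe relative to that part is not known here, so it checks nothing, and LWT and LKO are used as labelled. Hepatocyte markers were well above background on all arrays, and Ckm, Acta1 and Ucp1, of striated muscle and brown fat, on none. Tnnt3, Myh4 and Tnni2 of the same striated muscle list were well above background on all arrays and Mb on 1. Of the adipose list that holds Ucp1, Lep was well above background on all arrays. Cfd, Plin1, Adipoq and Retn of that list were so on some or all arrays of every group. In whole liver, fewer cells of a type and less RNA per cell cannot be told apart.

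With fasting, part of the subunit transcripts fell by a small amount in both genotypes, in shares that lay above or below those of all genes depending on the processing. Of the 82 genes, 23 fell and 2 rose in LWT livers, and 22 fell and 3 rose in LKO livers, with adjusted p at or below 0.05 from limma over all 32197 probes tested. By the chosen probes, changes were under 1.5-fold for all genes but Cox6b2, the testis-enriched isoform of a complex IV subunit, which rose in both genotypes and more in LKO. In LKO livers Cycs, the cytochrome c gene, rose as well. All counts of members go by the chosen probe of each gene, and another probe of Atp5g3, given with complex V, rose by 0.63 in LKO.

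Set against all genes, rises were fewer among the members in both genotypes under every setting tried, while the place of the falls depended on the setting. In LWT, 28.0% of the members were lower, where 21.7% of all genes tested were lower, and 2.44% were higher, where 19.9% were higher. The shares in LKO were 26.8% lower and 3.66% higher, against 21.9% and 19.6% of all genes. The median log2 change of the members was -0.071 in LWT and -0.073 in LKO, and that of all genes was -0.0079 and -0.021. A change above 1.5-fold with the same threshold was called for 10% of all genes in LWT and 12.8% in LKO, and among the members for Cox6b2 alone. The groups of 6 did not overlap for 9 members in LWT, 8 of them lower in the fasted mice, and for 14 in LKO, 11 of them lower, where 21.6% and 22.1% of all genes did not overlap.

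The scaling of the arrays bears on these counts and turns the comparison with all genes. With arrays centred on their medians in place of quantile normalization, 13 members fell and 2 rose in LWT, and 8 fell and 6 rose in LKO, so that 15.9% and 9.76% of the members were lower, against 21.6% and 25.1% of all genes. Starting from the scanner's processed signal, 12 fell and 2 rose in LWT, and 14 fell and 4 rose in LKO, which is 14.6% and 17.1% lower, against 21.1% and 22.4% of all genes. The share lower was also under that of all genes with only the groups compared in both genotypes (19.5% against 21.8% and 17.1% against 17.9%), without array weights in LWT (18.3% against 19.6%) and with probes averaged in LKO (19.5% against 21.8%), and in LKO without LKO_Fasted replicate 5 (18.3% against 19.5%) or 6 (17.1% against 19.4%). A share of falls above the background is therefore not a stable result here. The members' median stayed negative in both genotypes under each scaling tried, and in LKO it was -0.032 with median centring, where all genes had -0.060.

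**Figure D1:**
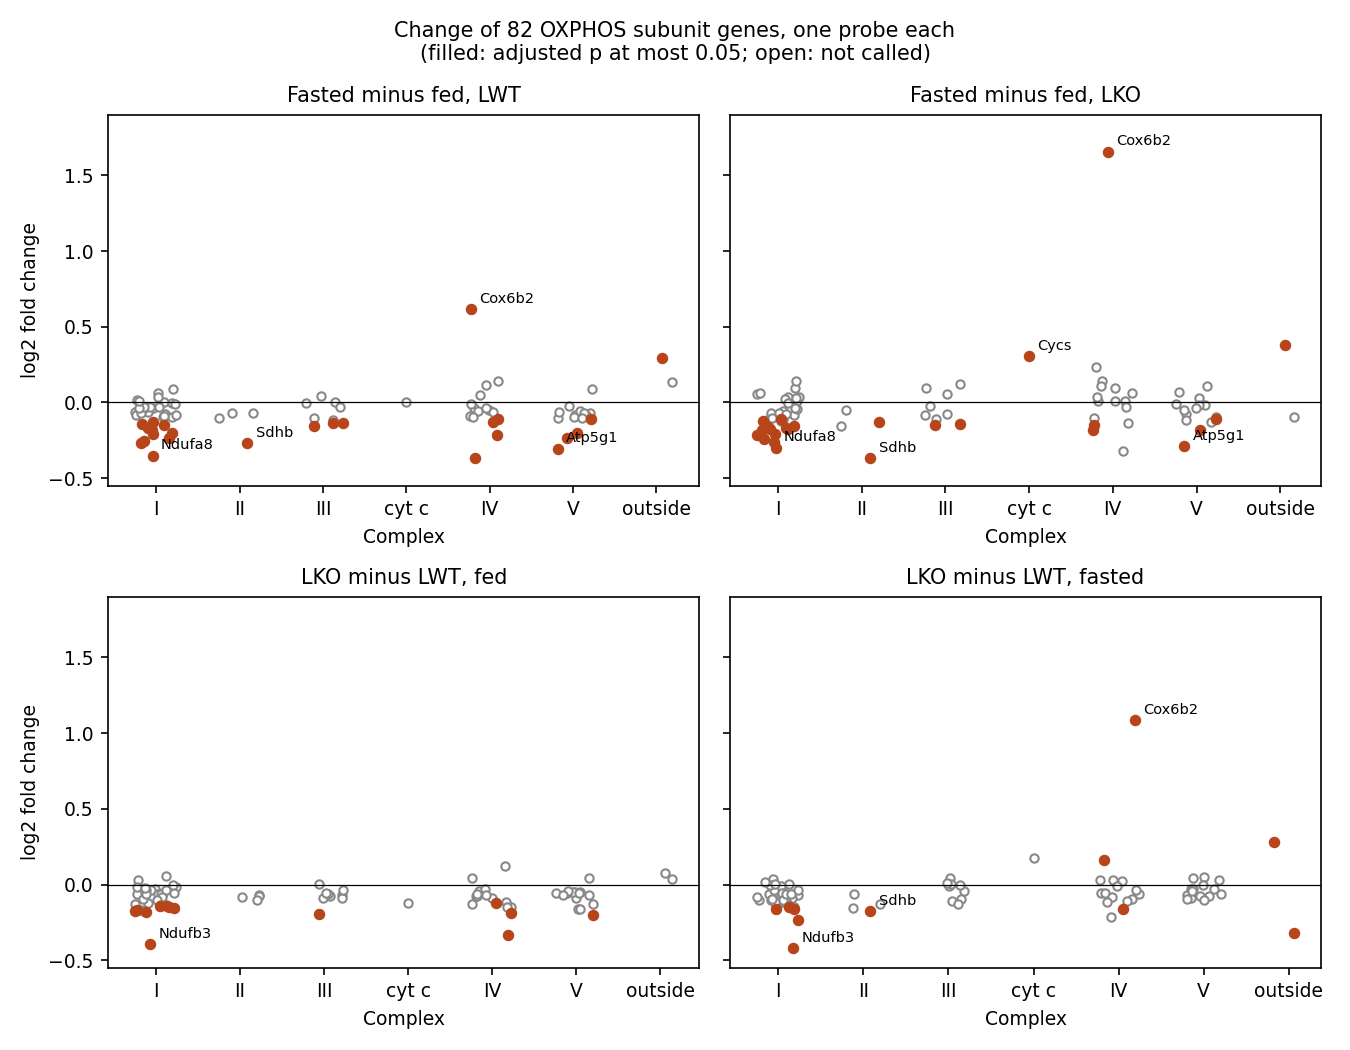
Log2 change of each of the 82 genes with fasting in LWT, fasting in LKO, genotype in the fed state and genotype in the fasted state, one point per gene, arranged by complex, with genes that passed the test marked apart from the others. All points but those of Cox6b2 lie between -0.42 and 0.38, below 0 more often than above it, and Cox6b2 stands at 0.62, 1.66 and 1.09 in the comparisons where it was higher.

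The plot of changes by complex shows how the falls were spread. The counts by complex are read beside the shares of all genes lower, 21.7% in LWT and 21.9% in LKO. Complex I, the NADH dehydrogenase, had 11 of 35 genes lower in LWT (31.4%) and 13 in LKO (37.1%), and none higher. All but 1 of these in each genotype were among its 28 accessory subunits, which surround the core and take no direct part in electron transfer, and the one of its 7 nuclear-encoded core subunits that was lower in both was Ndufs8, named after its values were seen.

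Ndufa8, an accessory subunit, had log2 levels of 12.38, 12.63 and 12.83 (lowest, median and highest of 6 mice) in LWT_Fed and 12.14, 12.28 and 12.39 in LWT_Fasted. In LKO they were 12.44, 12.57 and 12.71 fed and 12.03, 12.30 and 12.59 fasted. The fasted and fed mice overlapped at their edges in LWT and more widely in LKO. Ndufa8 fell by 0.35 ± 0.0615 on the log2 scale in LWT (SE, n = 6 per group, limma adjusted p = 8.39e-05) and by 0.30 ± 0.068 in LKO (limma adjusted p = 0.0012).

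Ndufb10, a subunit of the membrane arm, was separated in both genotypes. Its levels were 15.996, 16.12 and 16.26 in LWT_Fed against 15.82, 15.89 and 15.94 in LWT_Fasted, and 16.05, 16.10 and 16.12 in LKO_Fed against 15.79, 15.84 and 15.89 in LKO_Fasted. No fasted mouse of either genotype reached a fed one. The gene fell by 0.25 ± 0.044 in LWT and by 0.26 ± 0.0487 in LKO (limma adjusted p = 7.62e-05 and 0.000164).

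Ndufa13, also known as GRIM-19, fell by 0.27 ± 0.0468 in LWT and by 0.21 ± 0.0517 in LKO (limma adjusted p = 8.63e-05 and 0.00275), from medians of 16.98 and 16.88 in the fed mice to 16.75 and 16.66 in the fasted ones. Ndufs5 fell in LKO by 0.24 ± 0.0517 (limma adjusted p = 0.000615), with 15.19, 15.22 and 15.25 fed and 14.87, 14.97 and 15.05 fasted, so that the LKO groups did not overlap. In LWT its fall was 0.14 (limma adjusted p = 0.0184), and this call was lost without any one of 5 arrays, at most at an adjusted p of 0.0749 without LWT_Fasted replicate 6. Ndufb8, another membrane-arm subunit, fell by 0.23 ± 0.0487 in LWT (limma adjusted p = 0.00049) and by 0.16 in LKO (limma adjusted p = 0.0241), the latter lost without any one of 4 arrays (adjusted p = 0.0716 without LKO_Fasted replicate 5). The other probes of Ndufa13 (-0.11 and -0.13, limma adjusted p = 0.432 and 0.411) and Ndufb8 (-0.11 and -0.041, limma adjusted p = 0.227 and 0.704) did not pass in LWT or LKO.

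Complex II, succinate dehydrogenase, feeds electrons from the citric acid cycle and is wholly nuclear-encoded. Its iron-sulfur subunit Sdhb fell in both genotypes and its flavoprotein subunit Sdha in LKO. Sdhb had 15.86, 16.002 and 16.13 in LWT_Fed and 15.63, 15.79 and 16.02 in LWT_Fasted, with overlap. In LKO it had 15.92, 15.95 and 16.002 fed and 15.47, 15.62 and 15.66 fasted, with no overlap. The falls were 0.27 ± 0.0533 in LWT and 0.37 ± 0.059 in LKO (limma adjusted p = 0.000323 and 3.24e-05), and the gene's other probe gave -0.15 and -0.36 (limma adjusted p = 0.0327 and 5.24e-05).

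Sdha fell by 0.13 ± 0.0467 in LKO (limma adjusted p = 0.0275), a call lost without any one of 4 arrays (adjusted p = 0.0717 without LKO_Fasted replicate 3). Its other probes were not uniform: 1 was also lower in LKO, at -0.24 (limma adjusted p = 0.0153), 1 was higher, at 0.28 in LKO (limma adjusted p = 0.00692) and 0.27 in LWT (limma adjusted p = 0.00463), and 1 did not pass the test, at -0.12 (limma adjusted p = 0.157). The membrane anchors Sdhc and Sdhd did not pass the test in either genotype, with Sdhc at -0.070 and -0.053 and Sdhd at -0.10 and -0.15.

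In complex III, the genes that fell encode small subunits. Uqcr11 fell by 0.14 ± 0.0454 in LWT and by 0.15 ± 0.0502 in LKO (limma adjusted p = 0.0182 and 0.023), Uqcrq by 0.16 ± 0.045 in LWT (limma adjusted p = 0.00726) and Uqcrb by 0.14 ± 0.0496 in LKO (limma adjusted p = 0.025). In LWT the Uqcr11 levels were 16.46, 16.50 and 16.56 fed and 16.34, 16.36 and 16.45 fasted, without overlap. The core subunits Uqcrc1 (0.00040 in LWT and -0.074 in LKO) and Uqcrc2 (-0.0067 and 0.055), the Rieske protein Uqcrfs1 (0.040 and 0.12), the hinge protein Uqcrh (-0.027 and -0.022) and the haem protein Cyc1 did not pass in either genotype, Cyc1 standing at -0.12 in LWT and -0.083 in LKO. The other Cyc1 probe did pass in LWT, at -0.17 ± 0.0493 (limma adjusted p = 0.00755), stood at -0.066 in LKO (limma adjusted p = 0.352), and was lower by genotype in the fed state, at -0.19 ± 0.0504 (limma adjusted p = 0.0128). The Uqcr11 calls were each lost without any one of 3 arrays (adjusted p = 0.0972 without LWT_Fasted replicate 6 and 0.0736 without LKO_Fed replicate 1), and the Uqcrb call without any one of 4 (adjusted p = 0.0772 without LKO_Fasted replicate 6). The Uqcrq call held without any one array. It was lost with the processed signal, with median centring and without array weights (adjusted p up to 0.479). Of the other Uqcrb probes, 1 gave -0.0026 in LKO (limma adjusted p = 0.982) and 1 gave 0.26 there (limma adjusted p = 0.00836) and 0.23 in LWT (limma adjusted p = 0.00898).

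Complex IV, cytochrome c oxidase, had 4 of 16 genes lower (25%) and 1 higher in LWT, and 2 lower (12.5%) and 1 higher in LKO. Of all genes, 21.7% and 21.9% were lower. Cox5a, a ubiquitous subunit, fell by 0.22 ± 0.0487 in LWT and by 0.18 ± 0.0538 in LKO (limma adjusted p = 0.00108 and 0.0084), from 16.16, 16.24 and 16.40 fed to 15.98, 16.05 and 16.16 fasted in LKO, without overlap. Both Cox5a calls held without any one array. The LWT call was lost with the processed signal (adjusted p = 0.0624), and the LKO call with the processed signal and with median centring (adjusted p up to 0.153). Cox8a fell by 0.11 in LWT (limma adjusted p = 0.0235, no overlap) and by 0.15 in LKO (limma adjusted p = 0.00698). From the processed signal, its LWT change was 0.00089, and the LWT call was also lost without any one of 3 arrays (adjusted p = 0.0738 without LWT_Fasted replicate 6). The other calls in LWT were weak. Cox7a1, the heart and muscle isoform, fell by 0.37 ± 0.141 (limma adjusted p = 0.0409) and Cox7a2, the liver isoform, by 0.13 ± 0.0497 (limma adjusted p = 0.0438). These were lost without any one of 8 and 13 arrays, with adjusted p of 0.131 without LWT_Fasted replicate 5 for Cox7a1 and 0.149 without LWT_Fed replicate 5 for Cox7a2. The isoform pairs Cox4i1 (-0.039 in LWT and 0.063 in LKO) and Cox4i2 (-0.091 and 0.012) and Cox6a1 (-0.058 and 0.0080) and Cox6a2 (0.048 and 0.14) did not pass with fasting in either genotype. Neither did Cox6b1, Cox7b (-0.096 and -0.10) or Cox7a2l (0.14 and 0.0069).

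In complex V, the ATP synthase, 4 of 15 genes fell in LWT (26.7%), 3 fell in LKO (20%) and none rose. These shares of falls were near those of all genes, 21.7% and 21.9%. Atp5g1, one of 3 genes for the c subunit of the rotor, had 15.90, 16.01 and 16.16 in LWT_Fed and 15.69, 15.71 and 15.80 in LWT_Fasted, without overlap, and 15.84, 16 and 16.07 in LKO_Fed and 15.58, 15.73 and 15.92 in LKO_Fasted, with overlap. It fell by 0.30 ± 0.0542 in LWT and by 0.29 ± 0.06 in LKO (limma adjusted p = 0.000101 and 0.000515). Its other probes disagreed with each other: 1 gave -0.26 and -0.27 (limma adjusted p = 0.00224 and 0.00308) and 1 gave 0.36 and 0.21 (limma adjusted p = 7.23e-05 and 0.0181). Atp5g2 (-0.10 in LWT and -0.074 in LKO) and Atp5g3 (-0.084 and 0.11), which encode the same mature c subunit, did not pass by their chosen probes, but the other Atp5g3 probe rose, by 0.46 ± 0.087 in LWT and 0.63 ± 0.0962 in LKO (limma adjusted p = 0.000207 and 1.61e-05).

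Among the small subunits, Atp5e fell by 0.20 ± 0.0438 (limma adjusted p = 0.00087) and Atp5k by 0.24 ± 0.0499 (limma adjusted p = 0.00055) in LWT, both without overlap, and Atp5j by 0.18 ± 0.049 in LKO (limma adjusted p = 0.00495), also without overlap. The second Atp5k probe gave -0.21 in LWT (limma adjusted p = 0.00134), and the second Atp5j probe -0.33 in LKO (limma adjusted p = 0.00263). That Atp5j probe was also lower by genotype, at -0.28 fed and -0.73 fasted (limma adjusted p = 0.0127 and 2.3e-06), and its change with fasting differed between genotypes, by -0.45 (limma adjusted p = 0.0156), where the chosen probe gave 0.041, -0.074 and -0.12 and did not pass. Atp5j2 was called at -0.11 in both genotypes (limma adjusted p = 0.0362 and 0.0499), but its other probe rose, by 0.47 and 0.35 (limma adjusted p = 9.03e-07 and 0.000104). With its probes averaged Atp5j2 stood at 0.18 and 0.12, and its calls were lost without any one of 6 arrays in LWT (adjusted p = 0.133 without LWT_Fasted replicate 6) and any one of 20 in LKO (adjusted p = 0.151 without LKO_Fasted replicate 5). Over all members called with fasting, 9 had another tested probe in LWT, of which 3 had one called the same way and 2 one called the opposite way; in LKO these counts were 10, 5 and 4. A further 8 members in LWT and 5 in LKO were called by another probe and not by the chosen one, with such a probe higher for 7 and lower for 2 in LWT (Ndufa10 had one of each) and higher for all 5 in LKO. By genotype this was so for 5 members in the fed state, 1 higher and 4 lower, and for 4 in the fasted state, all lower.

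Of the genes that carry an Atp5 symbol from outside the complex, Atp5sl rose in LWT by 0.30 ± 0.0847 (limma adjusted p = 0.0073), with its other probe at 0.12 (limma adjusted p = 0.39), and Atp5s, a coupling factor B-like protein, rose in LKO by 0.38 ± 0.0804 (limma adjusted p = 0.000599). Both are named here after their values were seen.

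**Figure D2:**
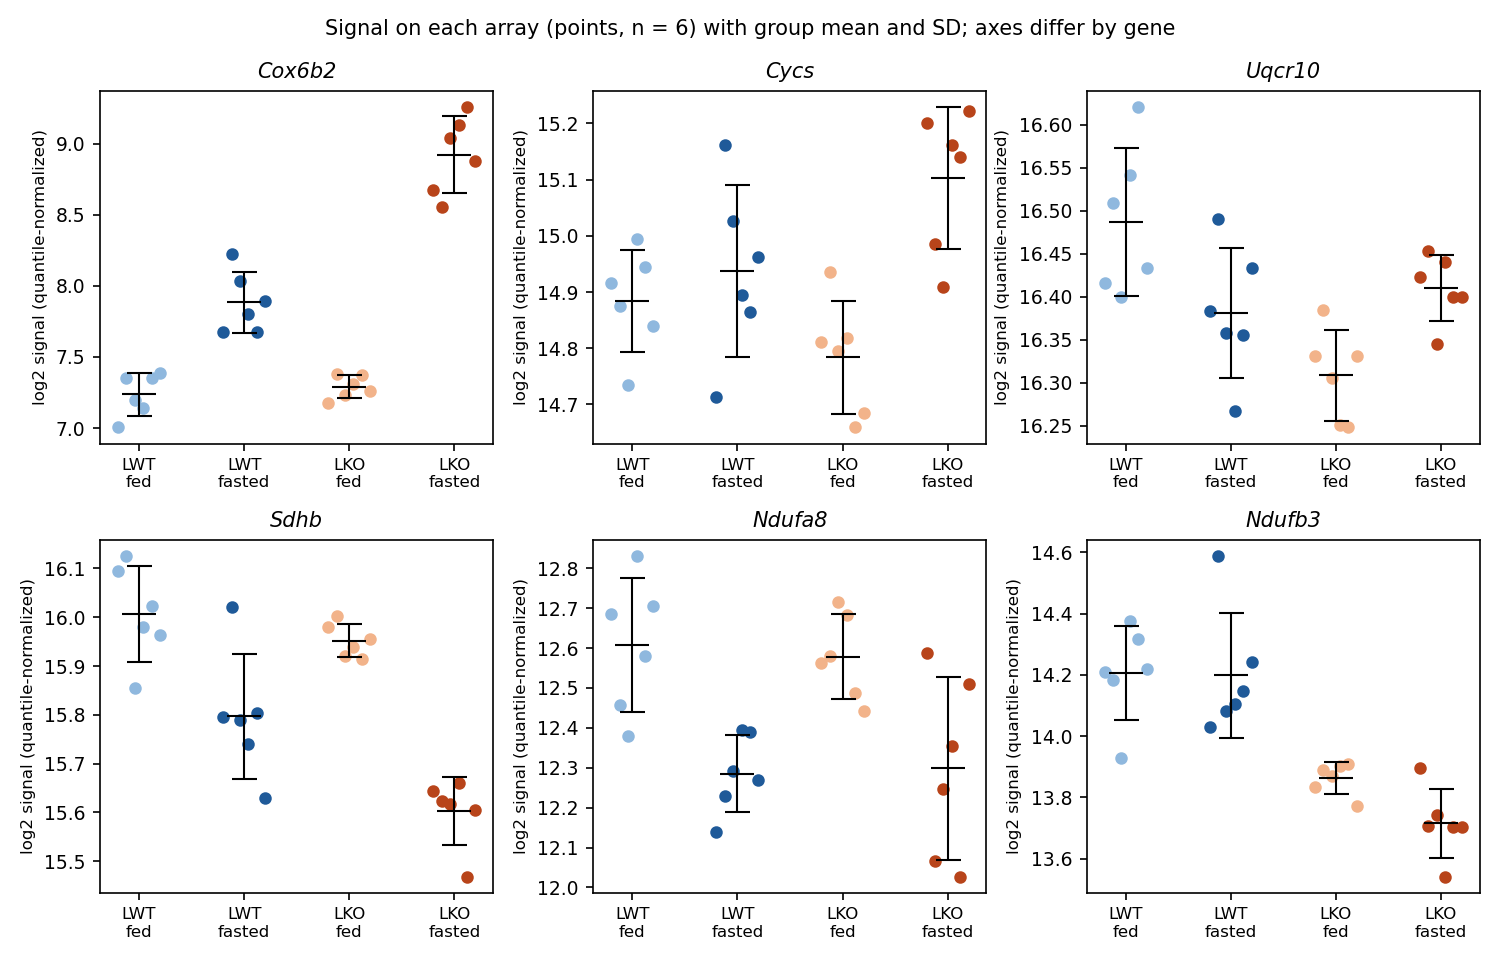
Log2 level in each mouse for Cox6b2, Cycs, Uqcr10, Sdhb, Ndufa8 and Ndufb3, one panel per gene, with the 4 groups on the horizontal axis, points for the 6 mice and lines for the group mean and SD; the vertical scales differ between panels. Cox6b2 runs from 7.005 to 7.39 in LWT_Fed and from 8.55 to 9.26 in LKO_Fasted, and the Ndufb3 points of LKO lie below those of LWT in each feeding state.

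Cox6b2 departed from the rest. Its probe, at chr7:4703488-4703547 of mm9, was well above background on all 24 arrays, with 7.005, 7.27 and 7.39 in LWT_Fed, 7.67, 7.85 and 8.23 in LWT_Fasted, 7.18, 7.29 and 7.38 in LKO_Fed and 8.55, 8.96 and 9.26 in LKO_Fasted. Fed mice of both genotypes lay together, every fasted mouse lay above them, and every fasted LKO mouse lay above every fasted LWT mouse. Cox6b2 rose with fasting by 0.62 ± 0.102 in LWT (1.53-fold, limma adjusted p = 4.65e-05) and by 1.66 ± 0.113 in LKO (3.15-fold, limma adjusted p = 1.85e-10). It was 2.12-fold higher in fasted LKO than in fasted LWT (log2 1.09 ± 0.111, limma adjusted p = 1.02e-06) and did not pass between the fed groups (0.047, limma adjusted p = 0.814). The calls with fasting and between the fasted groups held without any one array and under all other processing settings tried.

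Cox6b1, the isoform of the same subunit used in somatic tissues, did not pass the test in any comparison, with medians of 13.12, 13.07, 13.02 and 12.99 in LWT_Fed, LWT_Fasted, LKO_Fed and LKO_Fasted. Its changes with fasting were -0.052 in LWT and -0.033 in LKO (limma adjusted p = 0.404 and 0.649). The other tissue-restricted isoforms, Cox4i2, Cox6a2, Cox7a1 and Cox8b, did not rise in any comparison. Of the genes next to Cox6b2 in the RefSeq table, Kmt5c (Suv420h2 on the array), a histone methyltransferase, fell with fasting by 0.595 ± 0.0758 in LWT and by 0.46 ± 0.0838 in LKO (limma adjusted p = 1.75e-06 and 0.000122), and Fam71e2 was not tested.

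Cycs encodes the carrier between complexes III and IV. Its levels were 14.73, 14.90 and 14.99 in LWT_Fed, 14.71, 14.93 and 15.16 in LWT_Fasted, 14.66, 14.80 and 14.94 in LKO_Fed and 14.91, 15.15 and 15.22 in LKO_Fasted. The LWT groups lay over each other, while the LKO groups overlapped only at their edges. Cycs rose by 0.30 ± 0.0718 in LKO (limma adjusted p = 0.0016) and stood at 0.0051 ± 0.0649 in LWT (limma adjusted p = 0.959), and the second probe gave 0.29 in LKO (limma adjusted p = 0.0195). The difference between these changes, 0.30 ± 0.0967, did not pass the test itself (limma adjusted p = 0.0615).

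Promoters of these genes are given below for Cox6b2 and Cycs, which rose, for Cox6b1, the isoform that did not pass, and for Sdhb, which fell in both genotypes. Each is the 250 bases upstream of the start in RefSeq (GRCm38.p6), read 5′ to 3′ on the strand of the gene, with capitals for the 8 letters of the NRF1 motif where a search on both strands found it. Cox6b2 lies on the minus strand at chr7:4753095-4753344, Cox6b1 on the minus strand at chr7:30626115-30626364, Cycs on the minus strand at chr6:50566570-50566819 and Sdhb on the plus strand at chr4:140961021-140961270.
Cox6b2: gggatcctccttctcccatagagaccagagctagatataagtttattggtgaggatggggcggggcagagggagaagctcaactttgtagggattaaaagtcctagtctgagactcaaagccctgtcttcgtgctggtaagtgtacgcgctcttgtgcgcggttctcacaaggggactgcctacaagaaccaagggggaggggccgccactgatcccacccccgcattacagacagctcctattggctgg
Cycs: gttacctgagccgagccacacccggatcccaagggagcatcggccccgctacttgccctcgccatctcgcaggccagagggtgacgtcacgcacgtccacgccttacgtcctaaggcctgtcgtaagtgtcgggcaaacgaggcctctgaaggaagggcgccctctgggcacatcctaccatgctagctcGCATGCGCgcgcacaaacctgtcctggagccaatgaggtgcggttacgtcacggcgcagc
Cox6b1: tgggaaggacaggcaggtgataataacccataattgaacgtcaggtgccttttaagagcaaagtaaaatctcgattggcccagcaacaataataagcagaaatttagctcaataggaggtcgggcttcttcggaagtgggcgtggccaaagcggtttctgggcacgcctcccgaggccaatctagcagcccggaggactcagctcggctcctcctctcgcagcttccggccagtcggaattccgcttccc
Sdhb: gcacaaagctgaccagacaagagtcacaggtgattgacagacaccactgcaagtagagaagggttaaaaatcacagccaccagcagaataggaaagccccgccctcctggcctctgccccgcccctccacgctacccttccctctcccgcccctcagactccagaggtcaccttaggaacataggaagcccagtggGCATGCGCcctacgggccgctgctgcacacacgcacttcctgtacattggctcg

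Nuclear respiratory factor 1 (NRF1), GABP, YY1 and the oestrogen-related receptors (ERR) are transcription factors known to act on respiratory chain genes. The letters GCGCATGC (NRF1) occurred upstream of 9 of the 68 members matched to a promoter, 13.2%, and of 692 of 27025 genes in the table, 2.56%. CCGGAAGT (GABP) occurred in 3 members, 4.41%, against 3.23% of all genes, AAGATGGC (YY1) in 2 members, 2.94%, against 1.83%, and TNAAGGTCA (ERR) in 2 members, 2.94%, against 1.3%. At least 1 of the 4 motifs was found in 16 members, 23.5%, and in 8.52% of all genes. All were searched on both strands in windows of the same length, and no motif holds another.

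The NRF1 letters did not follow the calls closely. They stood in 4 of 22 members with a promoter that fell in LWT and in 5 of 44 that were not called there, and in 4 of 21 that fell in LKO and 4 of 44 that were not called. In Cycs, which rose in LKO, they lie 60 to 53 bases upstream of the start, and in Sdhb, which fell, 54 to 47 bases upstream. None of the 4 motifs was in the windows of Cox6b2 and Cox6b1. A match in letters is a description, not a site.

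Between LKO and LWT livers, called members were lower in the fed state, and in the fasted state they were lower or higher, with the largest difference a rise of Cox6b2. By their chosen probes, 13 of the 82 genes were lower in LKO between the fed groups and none higher, and between the fasted groups 8 were lower and 3 higher. Another probe of Atp5g1 was higher in LKO_Fed, at 0.25 (limma adjusted p = 0.0112). Complex I, with 35 of the 82 genes, held 8 of the 13 and 5 of the 8. In the fed state 22.9% of its genes were lower, against 7.60% of all genes. In the fasted state 14.3% were lower, against 10.6% of all genes, so that share was near the background. By the chosen probes, Ndufb3, a membrane-arm subunit, had the largest difference among the genes that were lower, and it was lower in both states. The second Atp5j probe, given with complex V, stood lower than Ndufb3 in the fasted state, at -0.73 (limma adjusted p = 2.3e-06).

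Of all genes tested, 8.81% were higher and 7.60% lower in LKO_Fed than in LWT_Fed, beside 0% and 15.9% of the members. In the fasted state, 10% of all genes were higher and 10.6% lower, beside 3.66% and 9.76% of the members, so the share lower in the fasted state was near the background. Differences above 1.5-fold were called for 3.86% and 4.06% of all genes in the fed and fasted state, for none of the members' chosen probes in the fed state and for that of Cox6b2 in the fasted state. The fed count rests on the fit as well: without array weights 6 members were lower, 7.32% against 6.38% of all genes, and with only the groups compared 3 were, 3.66% against 6.29% of all genes. The groups did not overlap for 6 members in each state, where 8.64% and 8.70% of all genes did not overlap. The median difference of the members was -0.073 fed and -0.063 fasted, beside -0.014 and -0.0041 over all genes.

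Ndufb3 had 13.93, 14.21 and 14.38 in LWT_Fed and 13.77, 13.88 and 13.91 in LKO_Fed, and 14.03, 14.13 and 14.59 in LWT_Fasted and 13.54, 13.70 and 13.90 in LKO_Fasted. All LKO mice lay below all LWT mice in the same state. It was lower by 1.31-fold in the fed mice (log2 -0.39 ± 0.0662, limma adjusted p = 0.00045) and by 1.34-fold in the fasted mice (-0.42 ± 0.0703, limma adjusted p = 0.000226). With fasting it stood at -0.094 in LWT and -0.12 in LKO and did not pass the test. Its genotype calls held without any one array and under all other processing settings tried, though not above 1.5-fold.

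Other complex I genes differed less. Ndufb9 was lower by 0.15 fed and 0.16 fasted on the log2 scale (limma adjusted p = 0.0326 and 0.0214), Ndufb8 stood at -0.18 ± 0.0498 fed (limma adjusted p = 0.0155), with its other probe at -0.071 (limma adjusted p = 0.544) and the call lost under 4 of the other settings (adjusted p up to 0.0903), and Ndufa13 at -0.14 ± 0.0479 fed (limma adjusted p = 0.0467), with its other probe at 0.028 (limma adjusted p = 0.894). Ndufv1, the core subunit that binds NADH, was at -0.17 ± 0.046 fed (limma adjusted p = 0.013), but its other probe gave -0.080 (limma adjusted p = 0.325). Ndufs5 was lower in the fasted state, at -0.24 ± 0.0508 (limma adjusted p = 0.0021), with 15.15, 15.22 and 15.31 in LWT_Fasted and 14.87, 14.97 and 15.05 in LKO_Fasted, without overlap. The calls of Ndufb9 were lost without any one of 7 arrays fed and 2 fasted (adjusted p = 0.0826 without LWT_Fed replicate 5 and 0.067 without LKO_Fasted replicate 6), that of Ndufv1 without LWT_Fed replicate 5 (adjusted p = 0.0554), and that of Ndufa13 without any one of 18 (adjusted p = 0.104 without LKO_Fed replicate 5).

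In the other complexes, Uqcr10 was lower in LKO_Fed by 0.20 ± 0.0437 (log2 -0.20, limma adjusted p = 0.00392), with 16.40, 16.47 and 16.62 in LWT_Fed and 16.25, 16.32 and 16.39 in LKO_Fed, just without overlap, while its other probe gave -0.14 (limma adjusted p = 0.0562). Atp5k stood at -0.20 ± 0.0511 fed (limma adjusted p = 0.00927, no overlap), and its other probe at -0.19 (limma adjusted p = 0.0103). Cox7c stood at -0.19 ± 0.0437 fed (limma adjusted p = 0.00594), but its other probe at -0.00075 (limma adjusted p = 0.998). Cox8a, the ubiquitous isoform of the smallest complex IV subunit, was lower in both states, at -0.12 fed (limma adjusted p = 0.0361) and -0.16 ± 0.0414 fasted (limma adjusted p = 0.00826), with medians of 16.90, 16.79, 16.78 and 16.63 in LWT_Fed, LWT_Fasted, LKO_Fed and LKO_Fasted. It was the only member called lower in both fasting comparisons and both genotype comparisons. Its fed call was lost without any one of 10 arrays (adjusted p = 0.079 without LKO_Fed replicate 1).

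Sdhb was lower in fasted LKO by 0.17 ± 0.0579 (log2 -0.17, limma adjusted p = 0.0378), and its other probe gave -0.33 (limma adjusted p = 0.000477). The first of these was lost without any one of 7 arrays (adjusted p = 0.117 without LKO_Fasted replicate 5). Of the genes higher in fasted LKO, Cox6b2 is described above, Cox7a2 stood at 0.16 ± 0.0539 (limma adjusted p = 0.0373) and Atp5s at 0.28 (limma adjusted p = 0.0144), while Atp5sl was lower there, at -0.32 ± 0.092 (limma adjusted p = 0.0172). The Cox7a2 call was lost without any one of 9 arrays (adjusted p = 0.0907 without LWT_Fasted replicate 6). Cox8b was called lower in LKO_Fed (limma adjusted p = 0.0236), but it was not well above background on any LKO_Fed array and on 2 of 6 LWT_Fed arrays, with means of 5.38 and 5.68 beside a floor of 5.63, so no fold is given. That call was lost without any one of 5 arrays (adjusted p = 0.0639 without LWT_Fed replicate 4).

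The counts by genotype rest on single arrays more than those by fasting. Between the fed groups 8 members were called without LWT_Fed replicate 1, 4 or 5. Between the fasted groups 6 were called without LKO_Fasted replicate 5 and 5 without LKO_Fasted replicate 6. Of the members called in the fed state, 7 had another tested probe. For 2 of these, Atp5k and Ndufb2, such a probe was called the same way, and for none the opposite way. Ndufb2, named after its values were seen, stood at -0.17, with other probes at -0.17 and -0.13 (limma adjusted p = 0.0099 and 0.541). In the fasted state these counts were 3, 2 and 0.

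**Figure D3:**
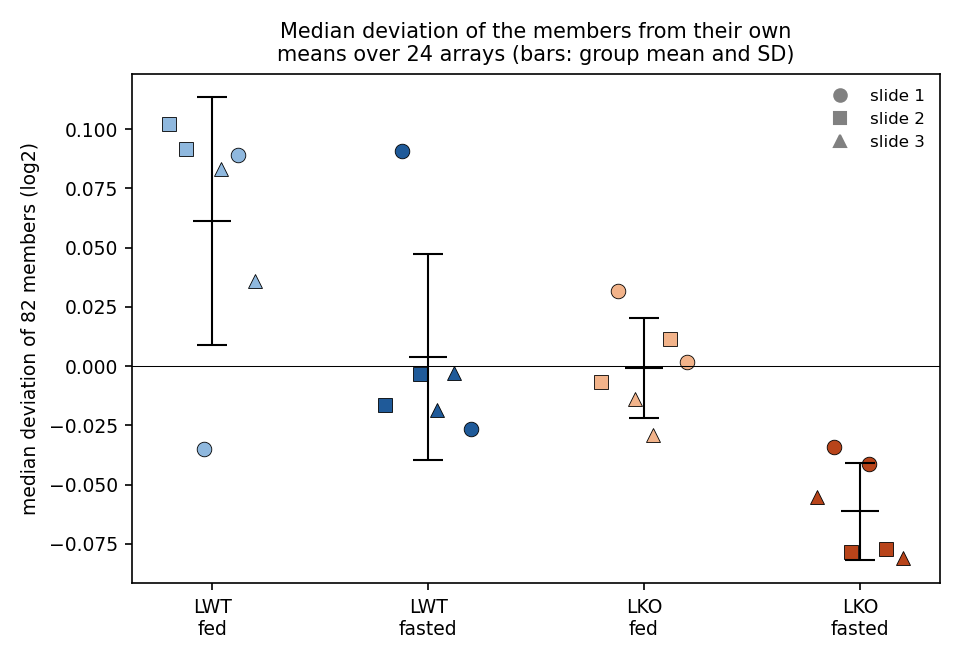
Median over the 82 genes of their deviation from each gene's mean over all arrays, in log2, for each array, arranged by group, with a symbol for each slide and lines for the group mean and SD. Values run from -0.0812 in LKO_Fasted to 0.102 in LWT_Fed, with LWT_Fed replicate 3 and LWT_Fasted replicate 2 apart from the rest of their groups.

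Summed up per mouse, the members were highest in LWT_Fed and lowest in LKO_Fasted. The median deviation of the members was 0.0612 ± 0.0524 (SD, n = 6) in LWT_Fed, 0.0038 ± 0.0435 in LWT_Fasted, -0.00086 ± 0.0211 in LKO_Fed and -0.0614 ± 0.0205 in LKO_Fasted. LWT_Fasted and LKO_Fed differed by less than their spread, and by group medians, -0.01 and -0.00249, their order was the reverse. The plot of array medians shows 2 LWT arrays against their groups, LWT_Fed replicate 3 at -0.0348 and LWT_Fasted replicate 2 at 0.0907. These lie in the same row of the same slide and had array weights of 0.32 and 0.441, where weights ran from 0.32 to 1.74. Without both, an alternative chosen after seeing the data, 32 members were called with fasting in LWT, 25 in LKO, 21 by genotype in the fed state and 13 in the fasted state. On their slide alone the members' median was 0.023 with fasting in LWT and 0.0056 by genotype in the fed state, and negative on each of the other slides.

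Whether fasting acted differently in LKO than in LWT was tested directly, as the change in LKO minus the change in LWT. Of all genes tested, 4.12% had a positive difference called, 3.87% a negative one and 3.11% one above 1.5-fold. Among the members' chosen probes there were 2 positive, Cox6b2 and Uqcr10, and none negative, while the second probe of Atp5j was negative as given above, and the median difference was 0.018, beside -0.0014 over all genes. The Cox6b2 difference was 1.04 ± 0.153 (2.06-fold, limma adjusted p = 0.000325).

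Uqcr10, a small subunit of complex III, had 16.40, 16.47 and 16.62 in LWT_Fed, 16.27, 16.37 and 16.49 in LWT_Fasted, 16.25, 16.32 and 16.39 in LKO_Fed and 16.35, 16.41 and 16.45 in LKO_Fasted. LWT_Fed lay above LKO_Fed without overlap, and the ranges of the other groups overlapped with LWT_Fed and with each other. It fell by 0.14 ± 0.0427 with fasting in LWT (limma adjusted p = 0.0124), stood at 0.099 in LKO (limma adjusted p = 0.101), and the difference was 0.24 ± 0.0637 (limma adjusted p = 0.0268). The other probe gave -0.085 with fasting in LWT (limma adjusted p = 0.166) and a difference of 0.18 (limma adjusted p = 0.125), and the call was lost without any one of 3 arrays (adjusted p = 0.0859 without LWT_Fed replicate 5) and under 5 of the other settings, with adjusted p up to 0.113. The LWT call was lost without LWT_Fed replicate 5 (adjusted p = 0.0637). In all, 4 members were called for this difference without LWT_Fed replicate 3, 1 without LWT_Fed replicate 5 and 1 without LKO_Fasted replicate 6. With the authors' normalized values 4 were positive and 1 was negative.

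**Figure D4:**
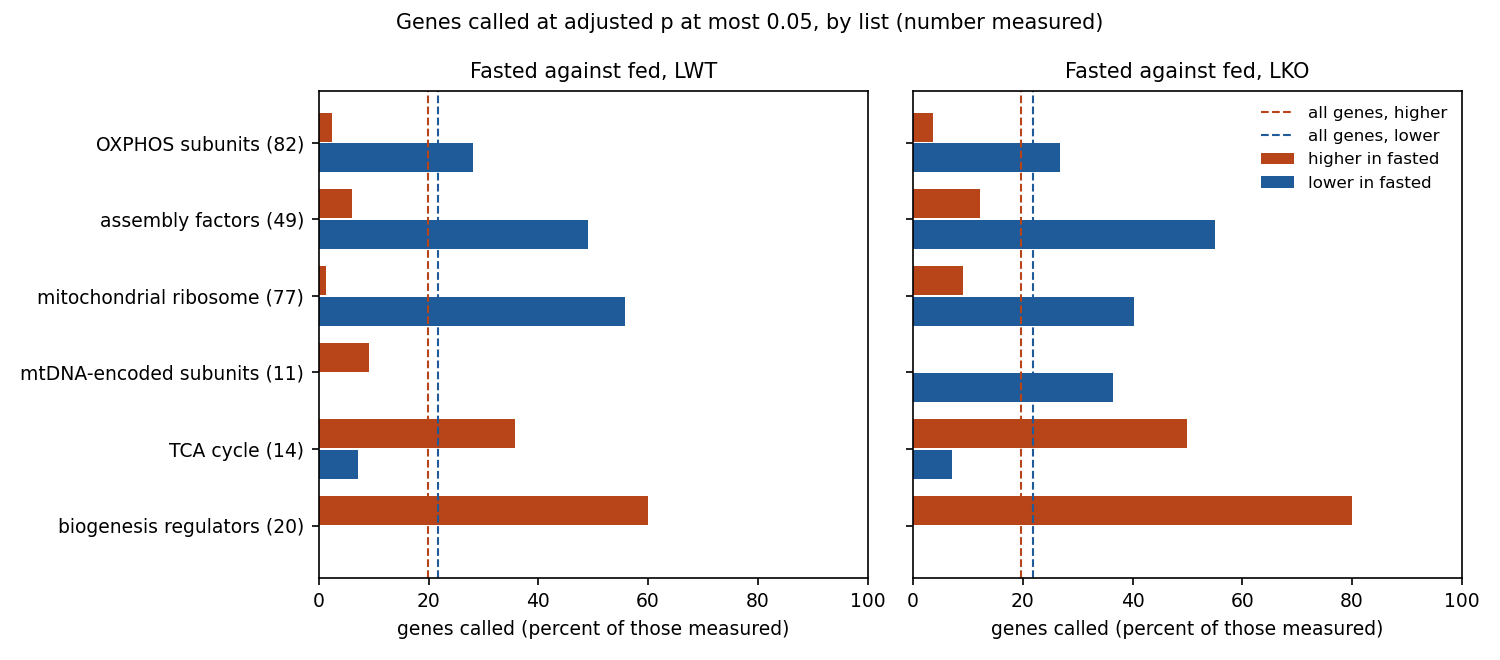
Paired bars for the share of each gene list called higher and called lower, in percent of its measured genes, with fasting in LWT and in LKO, for the 82 subunit genes and the lists of related mitochondrial genes. The biogenesis regulators extend to 60% and 80% higher, and the mitochondrial ribosome to 55.8% and 40.3% lower.

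The wider mitochondrial programme did not move as one. Over all genes, 19.9% rose and 21.7% fell with fasting in LWT, and 19.6% and 21.9% in LKO, and the counts that follow are read beside these shares. Of 20 regulators of mitochondrial transcription and biogenesis, 12 rose with fasting in LWT (60%) and 16 in LKO (80%), and none fell, with medians of 0.25 and 0.30. The coactivator Ppargc1b rose by 1.11 ± 0.117 in LWT and 0.81 ± 0.13 in LKO (limma adjusted p = 1.44e-07 and 3.01e-05). Ppargc1a, the PGC-1α gene, rose by 0.99 ± 0.233 in LWT (limma adjusted p = 0.0016) and stood at 0.56 in LKO (limma adjusted p = 0.089). Polg, the mitochondrial DNA polymerase, rose by 0.51 and 0.67 (limma adjusted p = 2.17e-06 and 1.85e-07). The plot of list shares sets these regulators beside the subunit genes, of which 23 and 22 fell.

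Of the assembly factors, which build the complexes, 49 of 50 listed were measured. With fasting 24 fell and 3 rose in LWT, and 27 fell and 6 rose in LKO, so that 49% and 55.1% were lower. Bcs1l, which inserts the Rieske protein into complex III, fell by 0.54 and 0.33 (limma adjusted p = 1.4e-06 and 0.00119), and Ndufaf3, a complex I factor, by 0.46 and 0.63 (limma adjusted p = 1.6e-05 and 8.54e-07). Sco2, a copper chaperone of complex IV, rose by 1.30 ± 0.18 and 1.48 ± 0.199 (limma adjusted p = 5.12e-06 and 3.05e-06).

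The mitochondrial ribosome, which translates the subunits encoded by mitochondrial DNA, had 43 of 77 genes lower (55.8%) and 1 higher in LWT and 31 lower (40.3%) and 7 higher in LKO. Mrps27 fell by 0.98 and 0.83 (limma adjusted p = 3.94e-09 and 1.5e-07), and Mrpl17 rose by 0.20 and 0.60 (limma adjusted p = 0.00315 and 1.8e-08). Of 11 subunits encoded by mitochondrial DNA and measured on the array, 1 was higher in LWT, ND5 at 0.27 (limma adjusted p = 0.0442). In LKO 4 were lower (36.4%), ND6 at -0.41, ND4 at -0.22, ATP8 at -0.20 and ND3 at -0.16 (limma adjusted p = 0.0228, 0.00177, 0.0267 and 0.0456).

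Lists of enzymes that feed the chain differed. Of 14 citric acid cycle genes, 5 rose (35.7%) and 1 fell in LWT, and 7 rose (50%) and 1 fell in LKO, with fumarase (Fh1) at 0.62 and 0.84 (limma adjusted p = 6.53e-06 and 3.55e-07) and citrate synthase (Cs) at -0.40 in LWT (limma adjusted p = 0.0015). Of the 8 other electron donors to coenzyme Q measured (of 9 listed), 2 rose and 2 fell in LWT (25% each) and 4 rose and 4 fell in LKO (50% each). Etfdh, which passes on electrons from fatty acid oxidation, rose by 0.93 ± 0.0733 in LWT and 1.42 ± 0.0811 in LKO (limma adjusted p = 1.94e-09 and 1.45e-11), a difference of 0.49 (limma adjusted p = 0.00928). Gpd2, of the glycerol phosphate shuttle, rose by 0.98 ± 0.188 in LKO (limma adjusted p = 0.000227) and stood at 0.018 in LWT. Of 13 genes of coenzyme Q synthesis, 1 rose and 5 fell in LWT (38.5% lower), and 1 rose and 2 fell in LKO (15.4% lower). Of 6 genes for nucleotide exchange, uncoupling and inhibition of the synthase measured (of 9 listed), 1 fell in LWT, and 2 rose and 1 fell in LKO. The gene lower in both was Atpif1, the inhibitor of ATP hydrolysis by complex V, at -0.52 and -0.59 (limma adjusted p = 2.92e-06 and 1.74e-06).

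By genotype, the counts of the related lists stand beside those of all genes, of which 8.81% were higher and 7.60% lower in the fed state and 10% and 10.6% in the fasted state. In the fed state, 1 assembly factor was higher and 10 lower, 8 genes of the mitochondrial ribosome (10.4%) were lower, 1 biogenesis regulator, 1 gene of coenzyme Q synthesis, 3 other electron donors and 2 exchange genes were lower, and 1 citric acid cycle gene was higher and 2 lower. In the fasted state, 2 assembly factors were higher and 11 lower, 9 ribosome genes higher and 5 lower, 4 regulators higher, 2 coenzyme Q genes lower, 2 other donors higher and 3 lower, 3 citric acid cycle genes higher and 1 lower, and 1 exchange gene lower. No subunit encoded by mitochondrial DNA was called by genotype in either state.

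Markers of other cells were read beside these results, and their part in them was not tested. Of 3 measured pancreas markers, all 3 were lower in LKO_Fasted than in LWT_Fasted and 1 lower in LKO_Fed than in LWT_Fed. The log2 of the summed signal of all 6 listed pancreas genes was 13.64 to 14.49 in LWT_Fed, 13.56 to 13.93 in LWT_Fasted, 13.16 to 13.99 in LKO_Fed and 12.81 to 13.34 in LKO_Fasted. Cpa1 and Pnlip were not well above background on any array. Such a sum follows its brightest genes, here Cela1, with a median signal of 13240 in LWT_Fed beside 3338 for Amy2a5 and 350.2 for Ctrb1. The adipose sum was 9.17 to 10.53 in LWT_Fed, 8.95 to 12.47 in LWT_Fasted, 8.82 to 9.07 in LKO_Fed and 8.83 to 9.31 in LKO_Fasted. The hepatocyte sum stayed within 20.67 to 20.97 in every group, and the striated muscle sum within 8.48 to 8.79. The hepatocyte sum rests mainly on Alb and Serpina1a, with median signals of 509300 and 508200 in LWT_Fed. The adipose and striated muscle sums include genes that were not well above background. With fasting, 1 of 7 hepatocyte, 2 of 6 stellate, 1 of 4 erythroid, 1 of 3 lymphocyte and 1 of 4 adipose markers were lower in each genotype, and 1 stellate and 1 of 4 cholangiocyte markers were higher in each. Cholangiocyte markers were lower for 2 of 4 in LWT and 1 in LKO, pancreas markers for 2 of 3 in LWT and 1 in LKO, and 1 of 7 Kupffer and macrophage markers was lower in LWT. Of 6 endothelial markers, 1 was lower in LWT and 1 higher in LKO, and no striated muscle marker was called in any comparison. Over all genes, 21.7% were lower and 19.9% higher with fasting in LWT, and 21.9% and 19.6% in LKO.

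By genotype, markers of other lists were called as well, in lists of few genes. Over all genes, 8.81% were higher and 7.60% lower in the fed state, and 10% and 10.6% in the fasted state. The genotype counts of all marker lists, pancreas included, are read beside these shares. Cholangiocyte markers were lower in LKO for 2 of 4 when fed and 1 when fasted, with all 4 negative in both states. Of these 4, Epcam was well above background on only 2 of 6 LKO_Fed and 1 of 6 LKO_Fasted arrays. Endothelial markers were lower for 2 of 6 in the fed state, and 1 of 4 erythroid markers was lower in each state. Of 4 adipose markers, Cfd was called lower in each state (limma adjusted p = 0.0123 and 0.008). It was well above background on 6 of 6 arrays in both LWT groups, but on 3 of 6 in LKO_Fed and 5 of 6 in LKO_Fasted. Its fitted differences, -2.76 fed and -3.001 fasted, were thus measured against signals near background, and their size is not exact. Of 7 hepatocyte markers, 1 was higher and 1 lower in the fed state and 1 lower in the fasted state, and no Kupffer and macrophage, stellate or lymphocyte marker was called.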

How the data were processed

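Liver RNA of 24 mice was hybridised to 1-colour Agilent mouse arrays, 1 per mouse, with 6 in each of 4 groups. The authors deposited the scanner output of Agilent Feature Extraction (10.10.1.1), in which each spot's median signal is an intensity on a linear scale, and a normalized log2 table, which followed the median signal in rank on every array (lowest Spearman rho 0.999996) and was used as an alternative. Here the log2 median signal of non-control spots, averaged per probe (90 missing values), was quantile-normalized. Probes well above background on at least 5 of 6 arrays of a group were kept (32197). limma 3.58.1 (R 4.3.3) fitted group means and slide with array weights, and p-values were adjusted by Benjamini-Hochberg over all kept probes. A call is an adjusted p at or below 0.05.

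Named with values are all genes of complexes II and III, Cycs, the isoform families, members called above 1.5-fold and, in complexes I, IV and V, the 3 most raised and 3 most lowered called members of each comparison. From other lists, up to 2 called genes in each direction were named, except that all subunits encoded by mitochondrial DNA that were called are named. The members, gene lists and markers were chosen with earlier results of these data known, so no list gives independent support. Accessions of 79 of the 82 members matched RefSeq, 3 under another symbol. The number of arrays limits the precision. The scripts were tested on simulated data. Replicate numbers were not used to pair mice. Probe positions are in mm9 as the deposited files give them, and no sequence was read from that build.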

Additional observations from a re-analysis of the deposited data

Results flagged for a closer look

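Values that lay far from the rest of their group were sought in 204 groups of 6 values, and 13 were found, where chance alone gives about 1 in 20 groups. Arrays LWT_Fasted replicate 2 and LWT_Fed replicate 3, which share a slide, hold 9 of them. In LWT_Fasted replicate 2, Atp5g3 stood at 17.01 (others 16.68 to 16.77), Cox7c at 15.11 (14.85 to 14.93) and Ndufb8 at 15.71 (15.39 to 15.45), and the median deviation was 0.0907 over all members, 0.0836 in complex I and 0.185 in complex IV. In LWT_Fed replicate 3, the complex III genes Uqcrb, Uqcrfs1 and Uqcrq stood at 15.64 (others 15.82 to 15.88), 14.15 (14.48 to 14.60) and 17.19 (17.42 to 17.53). The remaining values were Atp5k at 15.31 in LKO_Fed replicate 6 (others 15.56 to 15.65), Cox7a1 at 11.57 in LKO_Fasted replicate 4 (10.03 to 10.43), Cox8b at 5.83 in LKO_Fasted replicate 3 (5.54 to 5.59) and Sdhb at 15.47 in LKO_Fasted replicate 5 (15.61 to 15.66).

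The change with fasting differed between genotypes, by a test of the difference, for 2 members. The log2 difference was 1.04 for Cox6b2 and 0.24 for Uqcr10, higher in LKO for both.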

How the results depend on the processing

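Number of members called, out of 82, was 25, 25, 13, 11 and 2 for fasting in LWT, fasting in LKO, genotype fed, genotype fasted and the difference in fasting change, in that order below. For fasting in LWT it was 14 with the processed signal, 15 with median centring, 1 above 1.5-fold and 16 at an adjusted p of 0.01, and for fasting in LKO 14 with median centring, 1 above 1.5-fold and 15 at 0.01. For genotype fed it was 8 without the filter on dim probes, 6 without array weights, 3 with only the groups compared, 0 above 1.5-fold, 4 at 0.01 and 21 without LWT_Fasted replicate 2 and LWT_Fed replicate 3, and for genotype fasted 7 without the filter, 3 with only the groups compared, 1 above 1.5-fold and 4 at 0.01. For the difference it was 1 with the processed signal, median centring, no filter, no array weights, a change above 1.5-fold or an adjusted p of 0.01, 5 with the authors' normalized values, and 4 with probes averaged or without those arrays. Leaving out each array in turn gave 18 to 29, 17 to 25, 8 to 18, 5 to 13 and 1 to 4.

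The members' median changed sign on slide 1 alone for fasting in LWT (0.023), genotype fed (0.0056) and the difference (-0.069), and was -0.032 with median centring for fasting in LKO. Leaving out each array gave medians of -0.0814 to -0.0609, -0.0766 to -0.0559, -0.0809 to -0.0640, -0.0743 to -0.0557 and 0.00819 to 0.0367. Atp5j2 with fasting reversed with probes averaged (0.18 in LWT, 0.12 in LKO), as did Atp5g3 in LWT (0.19) and Uqcrb in LKO (0.039), and Cox8a in LWT stood at 0.00089 with the processed signal. For all of these the cause was not tested. Of 53 calls of named genes, 32 held without any one array and 19 of these also under all other processing settings.

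Same-numbered mice showed little shared deviation (4 of 36 pairs correlated above 0.1, from -0.173 to 0.297). Weak correlations cannot tell whether these mice share more than a number. A paired analysis with a replicate block gave 23, 23, 13, 10 and 1 members called. The slide row as a further term (22, 24, 12, 11 and 2) and leaving out the 2 LWT arrays were chosen after seeing the data. Signals near background, as for Cox8b, give only a bound.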
